A study of Mus musculus with 35 samples.

Results

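Apolipoproteins and the proteins that move, store and break down lipids were described here through 10 genes, the rows of the deposited expression table named *Apoe*, *Apoc1*, *Apoc2*, *Apoc4*, *Lpl*, *Abca1*, *Abcg1*, *Soat1*, *Plin2* and *Clu*, out of 21203 genes in all. They were selected on the difference between PBS mice at 1 week and Sham, since *Apoc2* had the largest rise there, and that difference is given below as a description without a test. The RNA analysed was from tissue around the injection site in the left hemisphere of 34 male C57BL/6NCrl mice, 1 library per mouse. Mice were aged 8 to 9 weeks when procedures began, so those sampled at 3 weeks were older than those sampled at 1 week. Injured mice had a closed head injury and, on day 5, an injection into the left hippocampus of PBS, of MSCs, or of IL-4 MSCs. Tissue was taken 2 days or 16 days after treatment, at 1 or 3 weeks post injury (wpi). MSCs are mesenchymal stromal cells, here primary C57BL/6N cells of 1 vendor lot, and IL-4 MSCs are the same cells transfected with synthetic mRNA for the cytokine interleukin-4. Sham mice went through the procedure without the impact, received no injection and were labelled as untreated. Every difference from Sham below therefore holds injury and injection together, which cannot be told apart. The 5 sham mice, 2 of week 1 and 3 of week 3, formed a single group. Groups of injured mice held 5 animals each, and the PBS group at 3 wpi held 4. The labels call the tissue left cortex. Mice of a treated group share a number in their labels that no other group has, and what it stands for cannot be told apart from the group.

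Apolipoproteins coat the particles in which cholesterol and fats are carried between cells, and in the brain *Apoe* is made chiefly by astrocytes and, after damage, by microglia. The apolipoprotein C proteins tune the enzymes that act on these particles, and *Apoc2* encodes the cofactor that activates lipoprotein lipase, the product of *Lpl*. *Abca1* and *Abcg1* encode pumps that load cholesterol onto lipoprotein particles, under the oxysterol-sensing receptor LXR, while *Soat1* encodes the enzyme that esterifies cholesterol for storage and *Plin2* a coat protein of lipid droplets.

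The apolipoprotein genes *Apoe*, *Apoc1*, *Apoc4* and *Apoc2* lie in this order on the minus strand within 27.6 kb of chromosome 7, chr7:19671579-19699188 (GRCm38), with 141 bases between *Apoc4* and *Apoc2*. The others lie elsewhere, *Abca1* at chr4:53030787-53159895, *Plin2* at chr4:86648386-86670060, *Soat1* at chr1:156424525-156474331, *Abcg1* at chr17:31057675-31117988, *Clu* at chr14:65968483-65981547 and *Lpl* at chr8:68880491-68907448. Promoters of 6 of the 10 genes were searched in the RefSeq promoter table (GRCm38.p6), and *Lpl* was left out of the search. The bases before the start sites of *Apoc2*, *Plin2* and *Abca1* are shown because the results below turn on these genes between the weeks. Each is written 5′ to 3′ on the strand of its gene and ends at the last base before the start site. For *Apoc2* this is the whole stretch between it and *Apoc4*, chr7:19677942-19678082, and for *Plin2* and *Abca1* it is 250 bases, chr4:86670060-86670309 and chr4:53159896-53160145, all on the minus strand. Start sites are those of RefSeq, and the *Plin2* stretch includes base 86670060, the 5′ end of the gene range given above.
*Apoc2*: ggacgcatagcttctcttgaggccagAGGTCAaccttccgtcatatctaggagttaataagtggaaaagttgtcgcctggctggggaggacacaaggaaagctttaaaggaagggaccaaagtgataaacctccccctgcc
*Plin2*: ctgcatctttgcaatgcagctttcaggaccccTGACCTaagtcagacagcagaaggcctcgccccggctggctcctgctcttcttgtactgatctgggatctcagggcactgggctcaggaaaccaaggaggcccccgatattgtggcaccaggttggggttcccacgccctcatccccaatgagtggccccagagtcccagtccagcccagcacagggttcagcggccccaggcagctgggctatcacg
*Abca1*: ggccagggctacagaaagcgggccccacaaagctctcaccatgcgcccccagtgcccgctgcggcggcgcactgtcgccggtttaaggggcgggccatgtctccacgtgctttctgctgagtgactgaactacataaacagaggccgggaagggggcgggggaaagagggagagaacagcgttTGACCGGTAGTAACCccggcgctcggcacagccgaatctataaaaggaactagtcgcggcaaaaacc
Capitals mark matches on either strand to the nuclear receptor half-site AGGTCA in *Apoc2* and *Plin2*, and to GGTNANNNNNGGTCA, a looser form of the direct repeat spaced by 4 bases to which LXR binds, in *Abca1*. The looser letters were chosen after the *Abca1* sequence was seen, and its match overlaps no half-site. The *Apoc2* half-site lies 115 to 110 bases before the start, the *Plin2* one 218 to 213 bases before it on the opposite strand, and the *Abca1* repeat 67 to 53 bases before it on the opposite strand. Over 32851 promoters of the same table, in windows of 250 bases, 14% held the half-site and 0.177% the looser repeat. The *Apoc2* stretch is shorter, at 141 bases, and no share was computed for that length. The strict repeats AGGTCANAGGTCA and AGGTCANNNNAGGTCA were in 0.0335% and 0.0152% of promoters and in none of the 3 shown. Of the genes not shown, *Apoe* held no half-site, and neither did *Soat1*, which also fell between weeks in IL-4 MSC mice. *Apoc4*, which was not tested, held 1 half-site, 25 to 20 bases before its start.

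Libraries held from 29838423 to 41554322 estimated counts, and the detection level, set at 3 counts, was 0.0722 to 0.1005 CPM (counts scaled to library size) depending on the library. It covers counting error only. In tissue of mixed cells, fewer cells of a type and less RNA per cell cannot be told apart, which holds for every difference below. Tests are edgeR's two-sided quasi-likelihood tests, with Benjamini-Hochberg adjusted p-values over the 17131 genes kept by a minimum on counts. Of the 10 genes 9 were kept and *Apoc4* was not. *Apoc2* was kept through the 1 wpi groups, the only ones in which every mouse had counts. All comparisons with Sham share the same 5 sham mice, which also served to choose the genes.

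In Sham, where levels of different genes can be compared on TPM (levels scaled to transcript length and library size), *Apoe* led with 1918 ± 95.9 TPM (mean ± SD, n = 5), rank 28 of all genes, and *Clu*, which encodes the apolipoprotein clusterin, followed with 961 ± 40.9 TPM at rank 76. *Abcg1* had 55.8 ± 5.40 TPM and *Soat1* 30.75 ± 2.72 TPM, and the ranges of these 4 genes did not overlap. *Abca1* at 12.9 ± 1.98 TPM and *Lpl* at 12.3 ± 1.83 TPM overlapped each other, as did *Apoc1* at 6.80 ± 2.27 TPM and *Plin2* at 6.26 ± 0.447 TPM. *Apoc2* and *Apoc4* were listed at 0 in every sham mouse.

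*Apoc2*, the lipase cofactor, was at 0 counts in all 5 sham mice and was detected in every injured mouse at 1 wpi. PBS mice had 5, 48, 15, 16 and 11 estimated counts, MSC mice 20, 15, 32, 13 and 9, and IL-4 MSC mice 54.8, 33, 19, 31 and 22. Against 3 counts over the whole sham group, *Apoc2* was at least 32.5-fold higher in PBS mice, at least 30.6-fold higher in MSC mice and at least 55.8-fold higher in IL-4 MSC mice, values that describe what the gene was chosen for and carry no test. The PBS mouse with 48 counts stood above the other PBS mice, whose highest value was 16. At 3 wpi the counts were 0, 1, 8 and 3 in PBS mice, 0, 1, 2, 0 and 11 in MSC mice, and 5, 5, 0, 1 and 1 in IL-4 MSC mice, so each group had mice at 0 and overlapped Sham. The sums over the mice of a group were 95 counts at 1 wpi and 12 at 3 wpi in PBS, 89 and 14 in MSC, and 159.8 and 12 in IL-4 MSC mice. IL-4 MSC mice at 3 wpi all lay below those at 1 wpi, whereas the MSC mouse with 11 counts at 3 wpi overlapped the 1 wpi range. These differences between weeks carry no test, because *Apoc2* was kept for testing through the groups in which it was high. At 1 wpi the log2 fold change of *Apoc2* from MSC to IL-4 MSC mice was 0.88 (approximate 95% interval -0.11 to 1.87). It carries no test for the same reason.

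**Figure D1:**
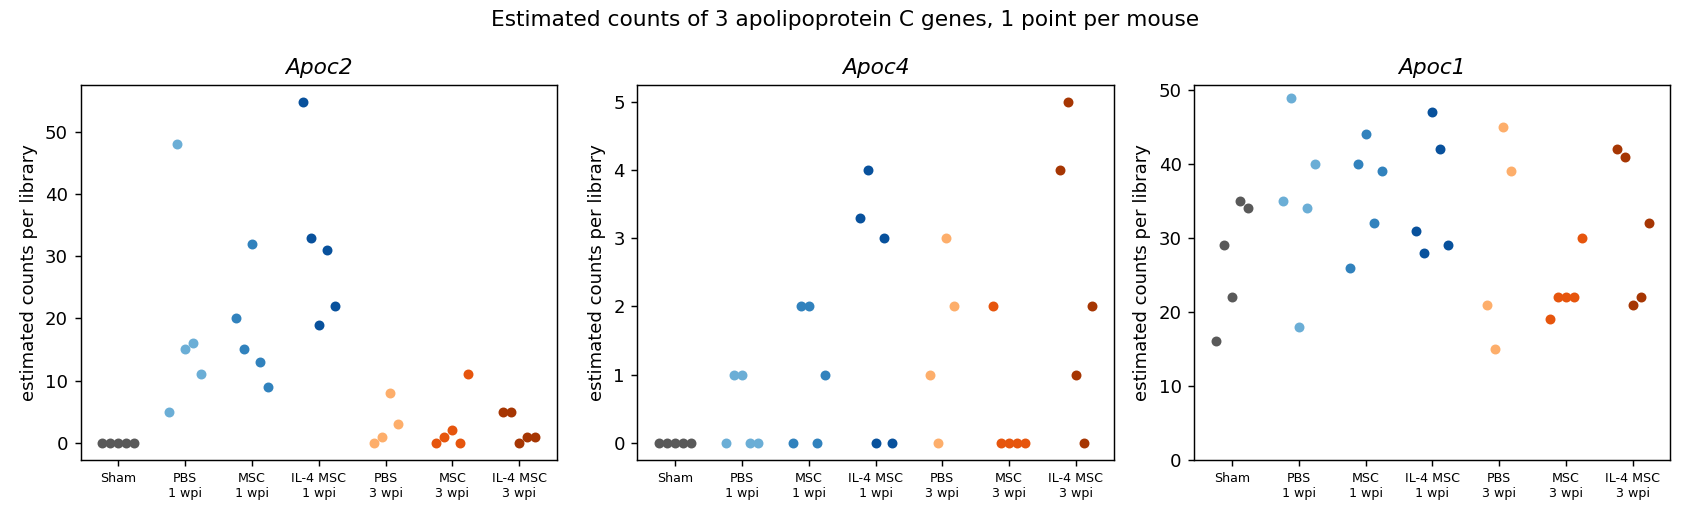
Estimated counts (vertical axis) of *Apoc2*, *Apoc4* and *Apoc1* in the 7 groups, 1 point per mouse. All sham mice are at 0 for *Apoc2*, the injured mice at 1 wpi sit between 5 and 54.8, and those at 3 wpi between 0 and 11, while *Apoc1* overlaps between all groups.

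*Apoc4*, the neighbour upstream of *Apoc2*, was at 0 in 18 of the 34 libraries and had at most 5 counts in any mouse. Its sums at 1 and 3 wpi were 2 and 6 counts in PBS, 5 and 2 in MSC, and 10.3 and 12 in IL-4 MSC mice, and it was not tested. A predicted gene that spans both on the same strand, Gm44805, had 2.9 counts in the IL-4 MSC mouse with 54.8 counts of *Apoc2* and next to none in any other. How reads were divided between these overlapping genes could not be checked. *Apoc1*, whose product inhibits the uptake of lipoprotein particles, had between 15 and 49 counts in every mouse. Its mean was 0.794 ± 0.2625 CPM in Sham (SD, n = 5) and between 0.698 and 1.08 CPM in the injured groups, ranges overlapped in every comparison, and it passed no test.

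*Apoe* was higher than Sham in most injured mice. Sham mice had 1058, 1063, 997, 1099 and 978 CPM, and PBS mice at 1 wpi 1476, 1422, 984, 1449 and 1359.5 CPM. Of these 5 PBS mice 4 lay above all sham mice, and replicate 2 lay within the sham range. MSC mice at 1 wpi had 1263, 1591, 1523, 1450.3 and 1769 CPM and IL-4 MSC mice 1447, 1542, 1383, 1584 and 1153 CPM, all above the sham mice. *Apoe* rose by 0.50 ± 0.10 in MSC mice (log2, SE, adjusted p = 0.00033, edgeR) and by 0.38 ± 0.10 in IL-4 MSC mice (adjusted p = 0.00233, edgeR). At 3 wpi MSC mice had 1536, 1331, 1314, 1509 and 1231 CPM and IL-4 MSC mice 1500.4, 1447, 1274, 1200.3 and 1366 CPM, again all above the sham mice. These log2 differences from Sham were 0.40 (adjusted p = 0.0314, edgeR) and 0.37 (adjusted p = 0.0252, edgeR), and no difference of *Apoe* between weeks passed the test. PBS mice at 3 wpi had 1247, 1153, 1543 and 1367 CPM, a log2 fold change of 0.33 ± 0.10 from Sham that did not pass (adjusted p = 0.626, edgeR), although all 4 mice lay above the sham mice.

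*Clu*, whose product is an extracellular chaperone, had a mean of 531 ± 15.9 CPM in Sham (SD, n = 5), and of 654 ± 61.1, 678 ± 61.3 and 696 ± 28.6 CPM in PBS, MSC and IL-4 MSC mice at 1 wpi. At 3 wpi the means were 627 ± 54.4, 652 ± 21.5 and 635 ± 28.1 CPM. Every MSC and IL-4 MSC mouse at both times, and every PBS mouse at 3 wpi, was above the highest sham mouse at 552 CPM. PBS replicate 2 at 1 wpi, with 547 CPM, was not. *Clu* rose by 0.31 ± 0.06 in MSC mice and 0.32 ± 0.06 in IL-4 MSC mice at 1 wpi (log2, adjusted p = 0.000158 and 2.89e-05, edgeR), and was 0.28 and 0.25 higher at 3 wpi (adjusted p = 0.00566 and 0.00992, edgeR). Against the 3 sham mice of week 3 alone the 3 wpi values were 0.27 and 0.23 and missed the threshold (adjusted p = 0.0572 and 0.0798, edgeR).

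Of 10 astrocyte markers, 5 were higher in MSC mice than in Sham at 1 wpi, and in IL-4 MSC mice 6 were higher and 1 lower, with summed levels of 5277 to 5769 CPM in Sham, 6291 to 7354 CPM in MSC mice and 6123 to 6958 CPM in IL-4 MSC mice. Of 12 microglial markers, 11 and 10 were higher, with summed levels of 323 to 417 CPM in Sham, 565 to 638 CPM in MSC mice and 599.6 to 743 CPM in IL-4 MSC mice, and none of either list was at 0 in a group. PBS mice at 1 wpi had 5 astrocyte and 10 microglial markers higher, with summed levels of 6507 to 6895 CPM and 524 to 669 CPM. Of 9 neuronal markers, 4 were lower than in Sham in PBS mice, 4 in MSC mice and 7 in IL-4 MSC mice, and 0 were higher. Their summed levels were 7207 to 7769 CPM in Sham and 6498 to 7190 CPM in PBS mice. They were 6618 to 7040 CPM in MSC mice and 6409 to 6862 CPM in IL-4 MSC mice. Of all genes 13.8% passed against Sham in PBS mice, 17.8% in MSC mice and 37.0% in IL-4 MSC mice. Astrocytes and microglia are known to make *Apoe*, and their part in the result was not tested.

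*Lpl*, the lipase that releases fatty acids from lipoprotein particles, followed another order. Sham mice had 28.9, 25.2, 22.1, 20.1 and 22.4 CPM, PBS mice at 1 wpi 32.3, 37.8, 34.8, 30.6 and 31.9 CPM, and MSC mice 27.9, 29.8, 32.9, 30.7 and 33.4 CPM. All PBS mice lay above all sham mice. IL-4 MSC mice at 1 wpi had 31.6, 24.6, 26.3, 23.7 and 25.8 CPM and overlapped Sham. The log2 fold change of *Lpl* from PBS to IL-4 MSC mice at 1 wpi was -0.38 ± 0.10 (adjusted p = 0.00662, edgeR), with 4 of the 5 IL-4 MSC mice below every PBS mouse. At 3 wpi IL-4 MSC mice had 26.6, 29.4, 30.6, 37.1 and 34.8 CPM, higher than at 1 wpi (log2 fold change 0.33 ± 0.10, adjusted p = 0.0105, edgeR), while PBS mice had 30.8, 26.7, 27.3 and 25.2 CPM and MSC mice 28.6, 29.1, 27.2, 24.75 and 21.6 CPM. The rise from 1 to 3 wpi missed the threshold without IL-4 MSC replicate 1 or 3 of 1 wpi or replicate 3 of 3 wpi (adjusted p between 0.0521 and 0.087, edgeR). Of 13 markers of striatum 9 were higher in IL-4 MSC mice at 3 wpi than at 1 wpi. Their summed levels were 389.7 to 2583 CPM against 449 to 909 CPM. At 3 wpi 11 were also higher than in PBS mice and 10 than in MSC mice. Whether the tissue sampled differed was not tested.

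The difference of *Lpl* between IL-4 MSC and PBS mice itself changed with the week, being -0.59 ± 0.14 at 1 wpi relative to 3 wpi (adjusted p = 0.0118, edgeR), which was 1 of 8 genes tested, where 4.72% of all genes passed, with 3.93% higher and 0.788% lower at 1 wpi. Against MSC mice the same value was -0.53 ± 0.14 (adjusted p = 0.0149, edgeR), 1 of 2 calls among 8 genes, leaving out *Apoc2*, where 7.86%, with 5.96% higher and 1.90% lower passed. It missed the threshold without IL-4 MSC replicate 3 of 3 wpi (adjusted p = 0.0526, edgeR). No such change was called between MSC and PBS mice, with 0 of 8 genes by edgeR, 0 at an unadjusted p under 0.05 and 0 by DESeq2 (background 0%). *Lpl* was also higher than Sham in MSC mice at 1 wpi (0.33, adjusted p = 0.0172) and in IL-4 MSC mice at 3 wpi (0.40, adjusted p = 0.0174, edgeR). The first was 0.14 against the 2 sham mice of week 1 alone (adjusted p = 0.471, edgeR), which had the highest *Lpl* values of the sham mice, and missed the threshold without sham replicate 3 (adjusted p = 0.0619, edgeR).

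**Figure D2:**
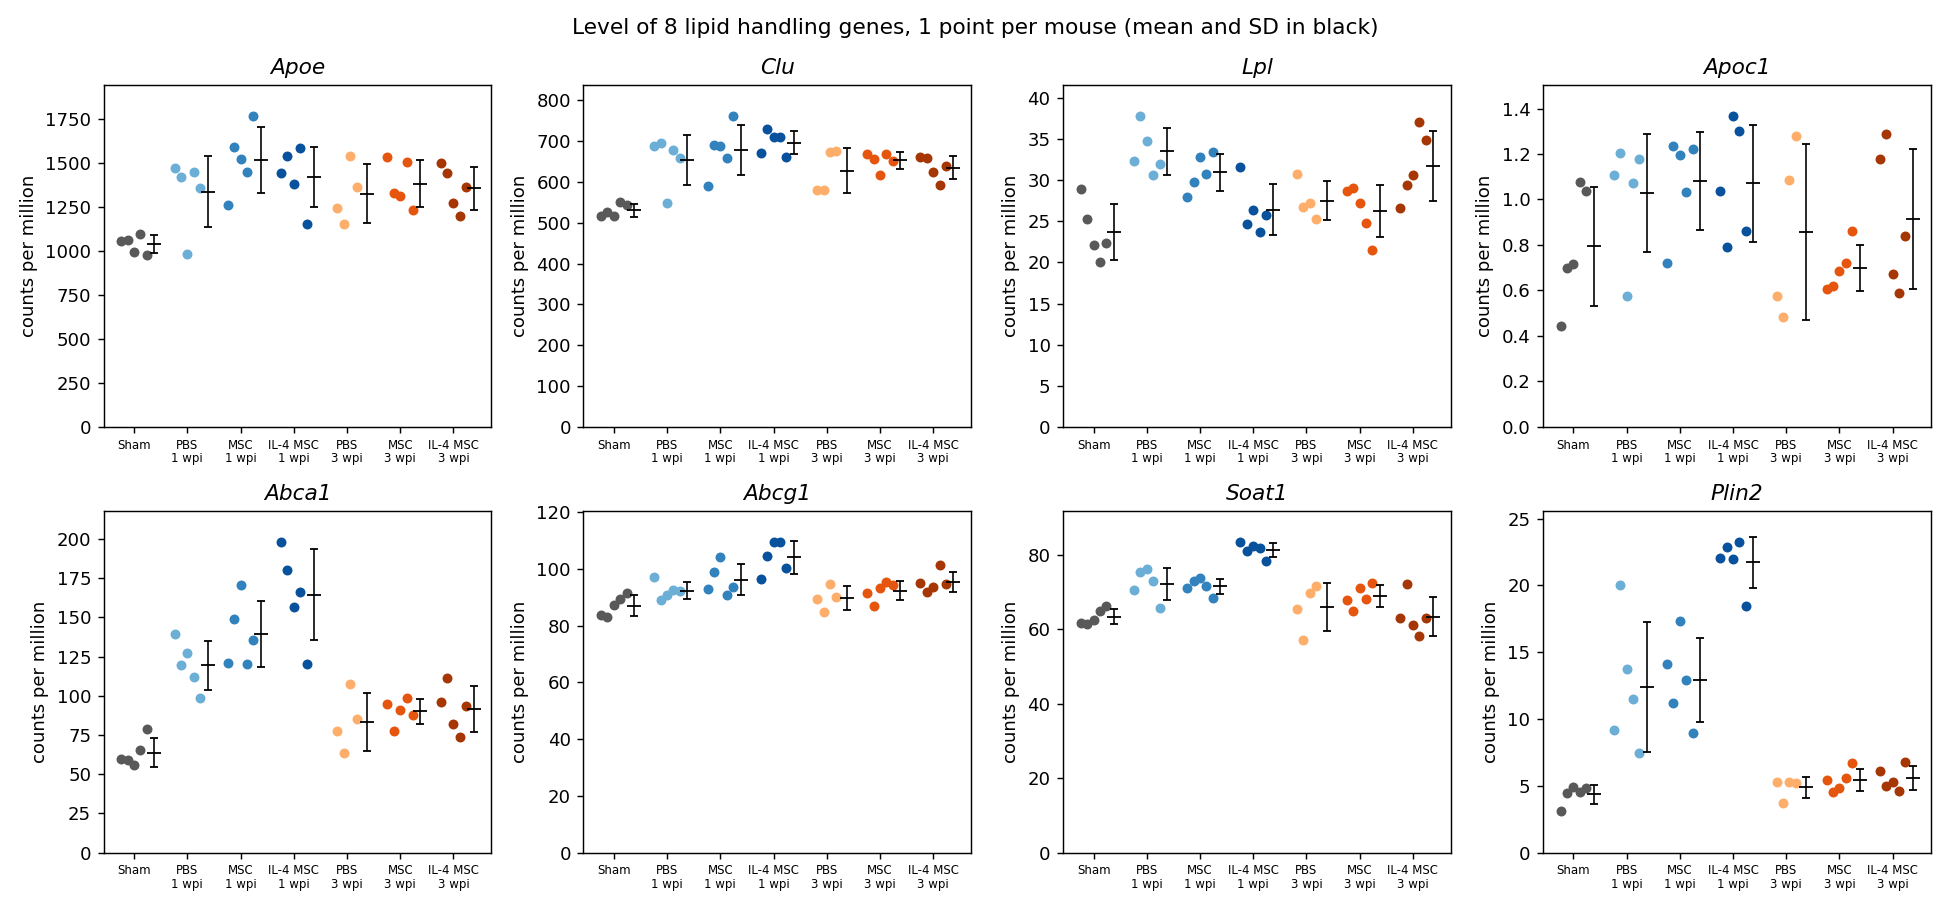
Level in CPM (vertical axis, from 0) of 8 genes in the 7 groups, 1 point per mouse, with mean and SD in black. *Apoe* and *Clu* stay above Sham at 3 wpi, *Abca1* and *Plin2* peak at 1 wpi in IL-4 MSC mice, with means of 164 and 21.7 CPM, and *Lpl* is lower there than in PBS mice.

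*Abca1*, the pump that hands cholesterol to apolipoprotein E, was higher than Sham in every injured mouse at 1 wpi. Sham mice had 59.9, 59.3, 55.6, 65.2 and 78.8 CPM. PBS mice had 139, 119.8, 128, 112 and 98.5 CPM, MSC mice 121, 149, 171, 120.5 and 136 CPM, and IL-4 MSC mice 198, 180.0, 157, 166 and 120.5 CPM. *Abca1* rose 2.11-fold in MSC mice (log2 fold change 1.08 ± 0.13, adjusted p = 3.43e-07, edgeR) and 2.45-fold in IL-4 MSC mice (1.29 ± 0.13, adjusted p = 1.62e-09, edgeR), and its untested fold in PBS mice was 1.83. It was also 1.34-fold higher in IL-4 MSC than in PBS mice (0.42 ± 0.13, adjusted p = 0.0204, edgeR), with 4 of 5 mice above every PBS mouse. That call was lost without PBS replicate 4 or IL-4 MSC replicate 0 or 1, with adjusted p between 0.0508 and 0.0646 (edgeR). The difference of *Abca1* between IL-4 MSC and MSC mice, 0.21 ± 0.13, did not pass (adjusted p = 0.379, edgeR).

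By 3 wpi *Abca1* was lower than at 1 wpi in each treatment. It stood at 83.3 ± 18.3 CPM in PBS mice (n = 4), 90.0 ± 8.12 CPM in MSC mice and 91.4 ± 14.5 CPM in IL-4 MSC mice (SD, n = 5 each), and had fallen by 0.50, 0.60 and 0.79 on the log2 scale (adjusted p = 0.0261, 0.00336 and 1.58e-05, edgeR). The PBS call was lost without PBS replicate 0 or 2 of 1 wpi, or 0 or 1 of 3 wpi, with adjusted p between 0.0643 and 0.166 (edgeR), and in a fit of the 2 PBS groups alone (adjusted p = 0.0694, edgeR). *Abca1* in IL-4 MSC mice at 3 wpi was 0.51 above Sham (log2, adjusted p = 0.0239, edgeR), with overlapping mice.

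*Abcg1*, the second cholesterol pump, changed far less. It was 87.0 ± 3.67 CPM in Sham, 92.4 ± 2.97 CPM in PBS mice, 96.1 ± 5.45 CPM in MSC mice and 104 ± 5.785 CPM in IL-4 MSC mice at 1 wpi (SD, n = 5 each). All 5 IL-4 MSC mice lay above all sham mice, a rise of 0.19 ± 0.04 (log2, adjusted p = 0.000254, edgeR), and *Abcg1* was 0.14 ± 0.04 higher than in PBS mice (adjusted p = 0.0129, edgeR). Its difference from MSC mice, 0.09 ± 0.04, did not pass (adjusted p = 0.17, edgeR).

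*Soat1*, the cholesterol-esterifying enzyme, separated the IL-4 MSC mice from every other mouse of that week. Sham mice had 61.8, 61.4, 62.4, 64.8 and 66.1 CPM, PBS mice at 1 wpi 70.5, 75.2, 76.1, 72.9 and 65.6 CPM, MSC mice 71.0, 72.8, 73.6, 71.5 and 68.4 CPM, and IL-4 MSC mice 83.4, 80.8, 82.2, 81.65 and 78.2 CPM. In IL-4 MSC mice *Soat1* was 0.29 ± 0.05 above Sham (log2, adjusted p = 8.72e-06), 0.14 ± 0.05 above PBS mice (adjusted p = 0.0382) and 0.16 ± 0.05 above MSC mice (adjusted p = 0.0239, edgeR). The call against PBS mice was lost without PBS replicate 0, 3 or 4 or IL-4 MSC replicate 0 (adjusted p between 0.0512 and 0.0822), and that against MSC mice without MSC replicate 4 (adjusted p = 0.0722, edgeR). At 3 wpi *Soat1* in IL-4 MSC mice had fallen by 0.30 ± 0.05 on the log2 scale to 63.35 ± 5.20 CPM (adjusted p = 6.99e-06, edgeR), and its difference between IL-4 MSC and MSC mice changed with the week by 0.28 ± 0.07 (adjusted p = 0.00719, edgeR).

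*Plin2*, the lipid droplet coat protein, was higher than Sham in every injured mouse at 1 wpi. Sham mice had 3.15, 4.48, 4.91, 4.52 and 4.82 CPM. PBS mice at 1 wpi had 9.22, 20.0, 13.8, 11.5 and 7.46 CPM, MSC mice 14.1, 11.2, 17.3, 12.9 and 8.95 CPM, and IL-4 MSC mice 22.0, 22.9, 22.0, 23.3 and 18.4 CPM. Every IL-4 MSC mouse lay above every MSC mouse. *Plin2* rose 2.86-fold in MSC mice (log2 fold change 1.52 ± 0.19, adjusted p = 5.69e-07, edgeR) and 4.73-fold in IL-4 MSC mice (2.24 ± 0.19, adjusted p = 3.18e-11, edgeR), and its untested fold in PBS mice was 2.77. In IL-4 MSC mice it was 1.71-fold above PBS mice (0.77 ± 0.18, adjusted p = 0.00201, edgeR) and 1.65-fold above MSC mice (0.73 ± 0.18, adjusted p = 0.00532, edgeR).

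PBS replicate 1, with the highest *Plin2* of its group, was also the mouse with 48 counts of *Apoc2*. By 3 wpi *Plin2* was at 4.88 ± 0.788 CPM in PBS mice (n = 4), 5.43 ± 0.848 CPM in MSC mice and 5.57 ± 0.893 CPM in IL-4 MSC mice (SD, n = 5 each). It had fallen by 1.32, 1.22 and 1.90 on the log2 scale (adjusted p = 5.74e-05, 5.57e-05 and 1.21e-09, edgeR), with no overlap of the weeks in any treatment. No difference of *Plin2* from Sham passed at 3 wpi.

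Counted over the genes tested, 5 of 8 passed against Sham in MSC mice at 1 wpi, all higher, where 17.8%, with 11.0% higher and 6.89% lower of all genes passed. In IL-4 MSC mice 6 of 8 passed, all higher, where the background was 37.0%, with 18.4% higher and 18.5% lower. The members' median log2 fold changes were 0.37 and 0.34, beside -0.01 and -0.02 over all genes. For PBS mice at 1 wpi, which chose the genes, the background was 13.8%, with 8.73% higher and 5.03% lower. Their untested log2 fold changes from Sham were 0.33 for *Apoe*, 0.35 for *Apoc1*, 0.46 for *Lpl*, 0.87 for *Abca1*, 0.05 for *Abcg1*, 0.15 for *Soat1*, 1.47 for *Plin2* and 0.26 for *Clu*. At 3 wpi 2 of 8 were higher than Sham in MSC mice (*Apoe* and *Clu*, background 1.15%, with 1.11% higher and 0.0350% lower) and 4 of 8 in IL-4 MSC mice (*Apoe*, *Clu*, *Abca1* and *Lpl*, background 4.27%, with 2.76% higher and 1.52% lower). In PBS mice 0 of 8 passed (background 0.0292%, with 0.0233% higher and 0.00584% lower), where 3 had an unadjusted p under 0.05 by edgeR and DESeq2 called 0.

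Most of the 3 wpi calls against Sham rested on few mice. The *Apoe* call in MSC mice was lost when any single sham mouse, or MSC replicate 0 or 3, was left out, with adjusted p between 0.0621 and 0.0879 (edgeR). In IL-4 MSC mice the calls of *Apoe* and *Abca1* were lost without sham replicate 0, 1 or 2 or IL-4 MSC replicate 0 or 4, and that of *Lpl* without sham replicate 3 or IL-4 MSC replicate 3 or 4, with adjusted p between 0.0515 and 0.0784 (edgeR). Against the 3 sham mice of week 3 alone, 0 of the 2 calls in MSC mice and 1 of the 4 in IL-4 MSC mice, *Lpl*, were left by edgeR, and the adjusted p of *Apoe* was 0.11 and 0.0882. Markers of striatum moved with the IL-4 MSC mice at 3 wpi. Of 13 such markers 9 were higher than in Sham, with summed levels of 389.7 to 2583 CPM against 218 to 898 CPM and none at 0, and with the striatal score as a covariate 1 of the 4 calls, *Lpl*, was left.

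Between the treatments at 1 wpi, IL-4 MSC and PBS mice differed in 5 of 8 genes tested, 4 higher and 1 lower in IL-4 MSC mice, where 17.4%, with 11.2% higher and 6.16% lower of all genes passed. The 4 higher were *Plin2*, *Abca1*, *Soat1* and *Abcg1* and the lower was *Lpl*, whereas *Apoe* (0.05, approximate 95% interval -0.14 to 0.24) and *Clu* (0.05, -0.06 to 0.16) did not pass. Leaving out *Apoc2*, IL-4 MSC and MSC mice differed in 2 of 8, *Plin2* and *Soat1* (background 8.69%, with 7.66% higher and 1.03% lower). MSC and PBS mice differed in 0 of 8 (background 0.123%), with 0 at an unadjusted p under 0.05 by edgeR and 0 by DESeq2. For *Plin2* this difference was 0.05 with an approximate 95% interval of -0.30 to 0.40, and for *Abca1* 0.21 with an interval of -0.04 to 0.46.

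At 3 wpi, leaving out *Apoc2*, which was kept through the 1 wpi groups, edgeR called 0 of 8 genes between any treatments. IL-4 MSC against PBS mice had 1 gene at an unadjusted p under 0.05 (background 2.94%, with 2.17% higher and 0.776% lower), IL-4 MSC against MSC mice had 2 (background 3.47%, with 2.29% higher and 1.18% lower), MSC against PBS mice had 0 (background 0.0817%), and DESeq2 called 0 in each. From 1 to 3 wpi 2 of 8 genes fell in PBS mice (background 5.51%, with 0.613% higher and 4.90% lower). Leaving out *Apoc2*, 2 of 8 fell in MSC mice (background 6.15%, with 1.22% higher and 4.93% lower), and in IL-4 MSC mice 3 of 8 fell, *Plin2*, *Abca1* and *Soat1*, and 1 rose (background 33.0%, with 16.4% higher and 16.6% lower).

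**Figure D3:**
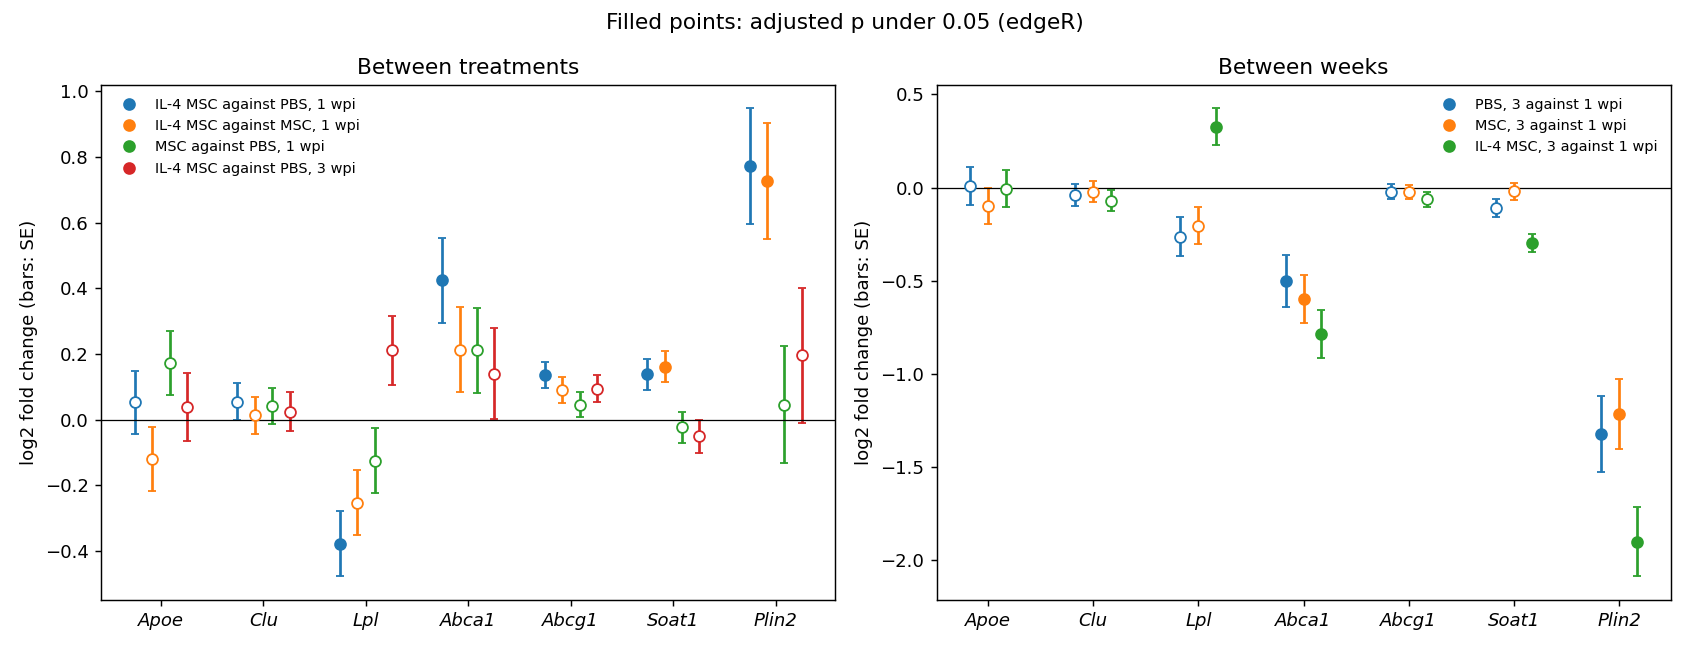
Log2 fold changes with SE bars (vertical axis) of 7 genes between treatments (left) and between 3 and 1 wpi within a treatment (right). Filled points had an adjusted p under 0.05, which *Plin2* and *Abca1* reached in all 3 treatments between weeks, and *Lpl* in IL-4 MSC mice with the opposite sign.

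Markers of monocytes and infiltrating macrophages moved with the IL-4 MSC mice at 1 wpi. Of 13 markers 12 were higher than in PBS mice and 12 higher than in MSC mice, with summed levels of 728 to 1111 CPM against 166 to 248 CPM and 226 to 316 CPM, compared with 76.4 to 138 CPM in Sham and 102 to 145 CPM in IL-4 MSC mice at 3 wpi. Of 8 endothelial markers 7 were higher than in PBS mice, with summed levels of 326 to 409.7 CPM against 239 to 267 CPM. Of 15 markers of disease-associated microglia 11 were higher than in PBS mice, with summed levels of 983 to 1184 CPM against 734 to 1001 CPM. Of 11 markers of fibroblasts, meninges and MSCs 5 were higher, with 846 to 975 CPM against 680.0 to 726 CPM, and of 5 erythrocyte markers 1 was higher and 1 lower, with 73.6 to 266 CPM against 3.66 to 30.8 CPM. Despite the higher sum, the median log2 fold change of the erythrocyte markers was -1.09 against PBS mice and -1.71 against MSC mice. Against MSC mice 8 of the 15, 2 of the 11 and, of the 5, 1 higher and 1 lower passed. Of 12 microglial markers 4 were higher than in PBS mice, and of 8 lymphocyte markers tested 3 were. No marker of the first 5 of these lists was at 0 in a group. *Plin2*, *Abca1* and *Soat1* are used by macrophages as well, and the part of these cells in their levels was not tested.

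Likeness to other genes was measured as the root mean square difference over the 6 log2 fold changes from Sham. Nearest to *Plin2* were Hk3 (0.13), Glipr2 (0.15) and Fcgr1 (0.17), and nearest to *Abca1* were Rad51b, Slc37a2 and Trpm5 (0.08 to 0.09). None is given for *Apoc2*, whose fold changes from a sham group at 0 have no fixed size. *Apoe* was nearest to Rdh5, Cfap53 and Tspan8 (0.07 to 0.08), *Clu* to Ccdc51, Aox1 and Cfap58 (0.05), *Lpl* to 4932438H23Rik, 6820408C15Rik and Gabre (0.09), *Abcg1* to Map3k3, Anks1 and Osbpl9 (0.01 to 0.02), *Soat1* to Zscan29, Tor1aip1 and Rttn (0.02) and *Apoc1* to Plb1, Dbp and Rbm3 (0.06 to 0.08).

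The other genes of these pathways were read from 8 lists, with shares set beside the backgrounds above. Among 15 other apolipoproteins tested, 7 were higher and 1 lower than Sham in IL-4 MSC mice at 1 wpi, and 5 were higher than in PBS mice (shares of 53.3% and 33.3%, beside 37.0% and 17.4% of all genes). Against PBS mice these were led by Apol9a (3.66 ± 0.43, adjusted p = 1.1e-07), Apol9b (3.38 ± 0.50, adjusted p = 7.2e-06), Apol10b (1.07 ± 0.22, adjusted p = 0.000555) and Apod (0.84 ± 0.14, adjusted p = 3.82e-05, edgeR). Apol9a and Apol9b are near-identical copies, so the division of reads between them is uncertain. Apod, a lipocalin, had 135 ± 9.89 CPM in Sham, 212 ± 39.1 CPM in PBS mice, 237 ± 23.4 CPM in MSC mice and 389 ± 39.7 CPM in IL-4 MSC mice at 1 wpi (SD, n = 5 each).

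Of 24 lipoprotein receptors, 4 were higher and 1 lower in IL-4 MSC than in PBS mice, 20.8% of the list and near the 17.4% of all genes. The microglial lipid receptor Trem2 rose by 0.60 ± 0.14 and the receptor Lsr by 0.56 ± 0.12 (log2, adjusted p = 0.00219 and 0.000942, edgeR). Of 21 lipases and cofactors 3 were higher and 1 lower (19.0%, also near that background), led by Apobr, a receptor of apolipoprotein B particles on macrophages (1.50 ± 0.20, adjusted p = 1.39e-06), and Hilpda, which inhibits breakdown of stored fat (0.83 ± 0.15, adjusted p = 0.000127, edgeR). Angptl4, a secreted inhibitor of lipoprotein lipase, was higher than Sham in MSC mice (1.49 ± 0.27, adjusted p = 0.000136) and IL-4 MSC mice (1.79 ± 0.27, adjusted p = 2.76e-06, edgeR).

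Among 29 genes of cholesterol transport and LXR, 5 were higher and 5 lower in IL-4 MSC than in PBS mice, 34.5% beside 17.4% of all genes. Tspo, a mitochondrial cholesterol-binding protein (1.29 ± 0.16), Ch25h, which makes an oxysterol (1.26 ± 0.44), Npc2, which carries cholesterol out of lysosomes (0.69 ± 0.07), and Nr1h3, the gene of LXR alpha (0.48 ± 0.10), were higher (adjusted p = 1.76e-07, 0.0446, 1.34e-08 and 0.00103, edgeR). Of 21 lipid droplet genes 5 were higher and 1 lower (28.6%), among them Lpin3 (0.59 ± 0.19), Cav1 (0.53 ± 0.08) and Agpat2 (0.51 ± 0.14). Of 24 genes for fatty acid uptake and use 2 were higher, Fabp5 (0.48 ± 0.08) and Cpt1a (0.20 ± 0.06), and 3 lower (20.8%, near the background). Of 7 PPAR genes 0 passed between IL-4 MSC and PBS mice. Against Sham 1 was lower in IL-4 MSC mice at 1 wpi, Ppargc1a, a coactivator of mitochondrial genes (-0.28 ± 0.04, adjusted p = 5.11e-07, edgeR). That is 14.3% of the list, below the 37.0% of all genes.

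Cholesterol synthesis genes had the opposite sign to *Abca1* and *Plin2* in comparison with Sham. Of 25 tested, 16 were lower and 1 higher in MSC mice at 1 wpi, and 18 lower and 2 higher in IL-4 MSC mice (backgrounds 17.8% and 37.0% of all genes), with list medians of -0.26 and -0.22 on the log2 scale. PBS mice at 1 wpi had the same direction, with 15 lower and 0 higher (background 13.8%) and a list median of -0.21. In MSC mice, Idi1 fell by 0.50, Insig1 by 0.43, Cyp51 by 0.41 and Hmgcs1 by 0.41 on the log2 scale (adjusted p = 7.12e-06, 0.00103, 1.38e-05 and 0.000532, edgeR). IL-4 MSC and PBS mice differed in 1 of the 25, Ebp, which was higher by 0.23. At 3 wpi 1 of 25 was lower than Sham in MSC mice and 2 in IL-4 MSC mice.

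**Figure D4:**
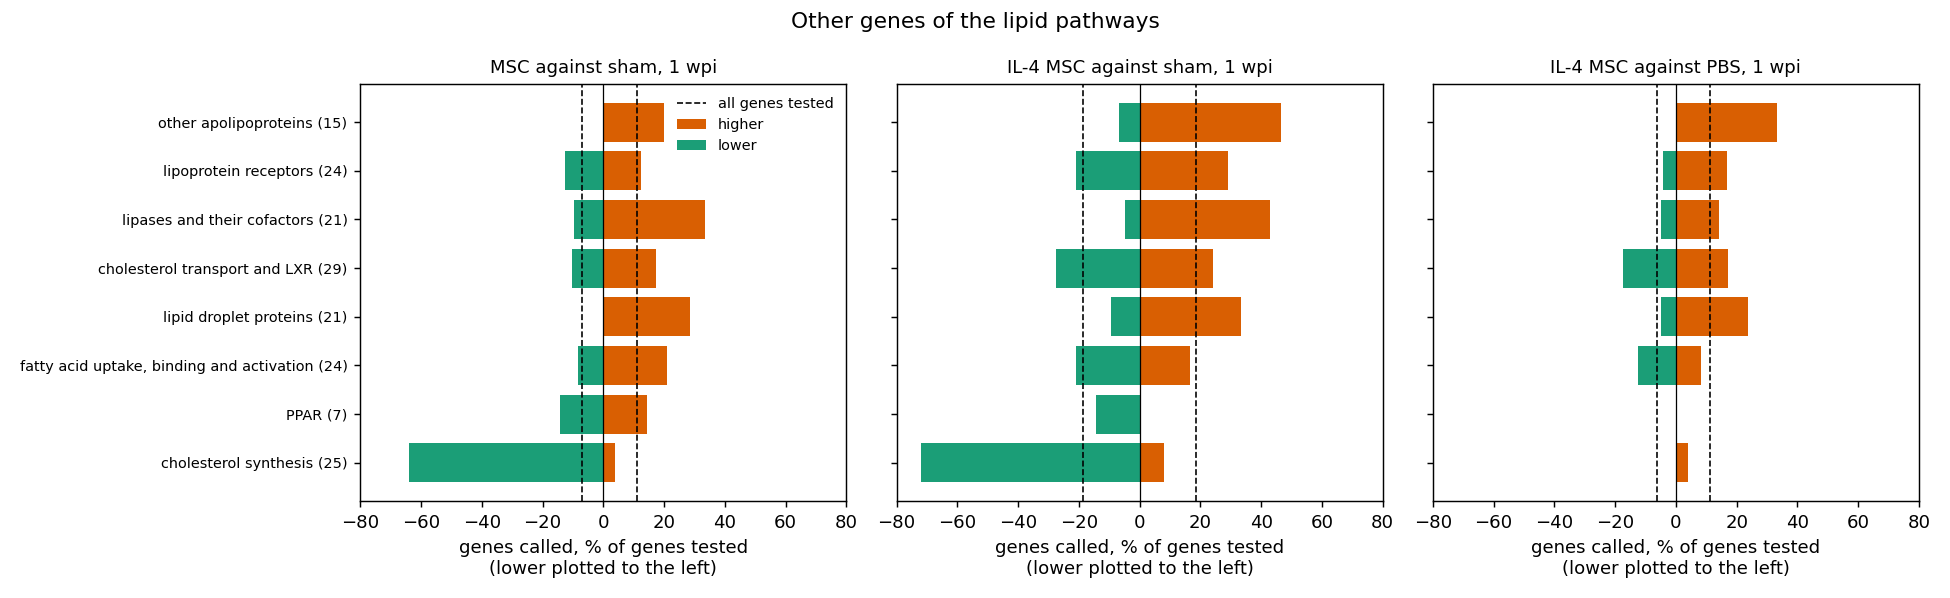
Share of the genes tested in each of 8 lists (number tested in parentheses) that were higher (right) or lower (left) in 3 comparisons at 1 wpi, in percent. Dashed lines give the shares over all genes tested, and the longest bars are the lower cholesterol synthesis genes against Sham, 16 and 18 of 25.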

How the data were processed

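Total RNA from 35 mice was sequenced, and the authors deposited 1 table with estimated counts and TPM per gene for 34 of them. It was made by trimming reads (cutadapt 2.4), checking them (FastQC 0.11.8), pseudoaligning them to protein-coding mouse transcripts (kallisto 0.46) and summing transcripts per gene. Pseudoalignment divides reads shared by overlapping or similar genes by estimate. The deposited columns of the authors' own comparisons (p-values, q-values and fold changes from sleuth 0.30) were not used. The labels list 35 mice. The remaining PBS mouse at 3 wpi, which the study left out for anomalous transcript counts, was not analysed here.

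Estimated counts were rounded to whole numbers and fitted over all libraries with edgeR 4.0.16 in R 4.3.3 (filterByExpr, TMM factors 0.968 to 1.04, glmQLFit), with a threshold of 0.05 on Benjamini-Hochberg adjusted p-values. The script was tested on simulated data. DESeq2 1.42.0 and other settings served as alternatives. The median log2 fold change of all genes was -0.0177 to 0.0251. All 66 pairs of mice of a group differed beyond counting error (chi-square per gene 3.20 to 50.17). Members and lists were chosen with earlier results of these data known. Besides the members, the text names the 3 genes nearest to each but *Apoc2* and up to 4 called genes with the largest changes of a list. Gene positions are from GENCODE (GRCm38) and promoters from RefSeq.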

Additional observations from a re-analysis of the deposited data

Results flagged for a closer look

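Single mice stood apart from the rest of their group, by Dixon's criterion, in 8 of 68 combinations of gene and group, where chance marks about 1 in 20. PBS replicate 2 at 1 wpi accounted for 3 of them. It had 984 CPM of *Apoe* against 1359.5 to 1476 CPM in the others, 547 CPM of *Clu* against 659 to 696 CPM, and 0.576 CPM of *Apoc1* against 1.07 to 1.20 CPM. *Plin2* had a low mouse in 3 groups. Sham replicate 0 had 3.15 CPM against 4.48 to 4.91 CPM, PBS replicate 1 at 3 wpi 3.70 CPM against 5.24 to 5.30 CPM, and IL-4 MSC replicate 4 at 1 wpi 18.4 CPM against 22.0 to 23.3 CPM. Among MSC mice at 3 wpi, replicate 4 had 0.316 CPM of *Apoc2* against at most 0.0624 CPM, and replicate 0 had 0.0639 CPM of *Apoc4* with the others at 0.

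Differences between treatments that themselves differed between the weeks were called for *Lpl*, at -0.59 ± 0.14 for IL-4 MSC against PBS mice and -0.53 ± 0.14 for IL-4 MSC against MSC mice (log2, 1 wpi minus 3 wpi, adjusted p = 0.0118 and 0.0149, edgeR), and for *Soat1*, at 0.28 ± 0.07 for IL-4 MSC against MSC mice (adjusted p = 0.00719, edgeR).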

How the results depend on the processing

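DESeq2, RLE size factors, no minimum on counts and the replicate block kept the number of genes called within 1.5 times in each of the comparisons. With the striatal marker score as a covariate, the number of genes called went from 4 to 1 in IL-4 MSC against Sham at 3 wpi. Over all comparisons, with *Apoc2* between weeks included, 4 calls were lost and 2 gained with this covariate. With the sham mice of the same week alone, the number of genes called went from 2 to 0 in MSC against Sham at 3 wpi and from 4 to 1 in IL-4 MSC against Sham at 3 wpi. With only the groups compared in the fit, the number of genes called went from 4 to 2 in IL-4 MSC against Sham at 3 wpi and from 2 to 1 in PBS between weeks. With 1 mouse left out at a time the number ranged from 1 to 2 in MSC against Sham at 3 wpi, from 1 to 5 in IL-4 MSC against Sham at 3 wpi, from 3 to 5 in IL-4 MSC against PBS at 1 wpi, from 1 to 3 in IL-4 MSC against MSC at 1 wpi, from 0 to 1 in IL-4 MSC against MSC at 3 wpi, from 1 to 2 in PBS between weeks, from 1 to 2 in the change with week of IL-4 MSC against PBS and from 1 to 3 in the change with week of IL-4 MSC against MSC. The mice whose absence ended a call are named beside each result, except for *Apoc2* between weeks, which carries no test. Calls were gained for *Soat1* without sham replicate 4 and *Abcg1* without MSC replicate 3 (MSC against Sham at 1 wpi), for *Abca1* without sham replicate 4 (MSC against Sham at 3 wpi), for *Abcg1* without IL-4 MSC replicate 0 of 1 wpi or 3 of 3 wpi (IL-4 MSC between weeks), without IL-4 MSC replicate 1 (against Sham at 3 wpi) and without MSC replicate 2 or IL-4 MSC replicate 0 (against MSC at 1 wpi), for *Soat1* without IL-4 MSC replicate 1 (against MSC at 3 wpi), and, in the changes with week, for *Plin2* without PBS replicate 1 or MSC replicate 2 of 1 wpi and for *Soat1* without PBS replicate 2 of 1 wpi, PBS replicate 1 of 3 wpi or IL-4 MSC replicate 1 of 3 wpi. The causes were not tested.

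Signs changed in 19 values under other settings and 78 values with 1 mouse left out, in 30 results, and 0 of these log2 values passed the threshold in either fit (lowest adjusted p of the results 0.532, edgeR). With DESeq2, they were *Apoc2* 0.00365 in MSC against PBS at 3 wpi. With the replicate block, they were *Apoc2* 0.0762 in MSC against PBS at 3 wpi. With the striatal marker score as a covariate, they were *Apoc1* -0.0542 in IL-4 MSC against PBS at 1 wpi, *Plin2* -0.0232 in MSC against PBS at 1 wpi, *Apoc1* -0.0409, *Apoc2* 0.0789 and *Plin2* -0.0205 in IL-4 MSC against PBS at 3 wpi, *Apoc2* 0.0620, *Abca1* -0.0284, *Abcg1* -0.0265 and *Plin2* -0.146 in IL-4 MSC against MSC at 3 wpi, *Apoc2* 0.0169 in MSC against PBS at 3 wpi and *Abcg1* -0.00611 in the change with week of MSC against PBS. With the sham mice of the same week alone, they were *Lpl* -0.113 in IL-4 MSC against Sham at 1 wpi, *Apoc1* -0.154 and *Abcg1* -0.00756 in PBS against Sham at 3 wpi and *Apoc1* -0.0583 in IL-4 MSC against Sham at 3 wpi. With *Apoc2*, *Apoc4* and Gm44805 summed, they were *Apoc2* 0.128 in IL-4 MSC against PBS at 3 wpi and *Apoc2* 0.506 in IL-4 MSC against MSC at 3 wpi.

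With 1 mouse left out, the log2 values ranged as follows. For PBS against Sham at 3 wpi, *Apoc1* -0.141 to 0.280. For IL-4 MSC against Sham at 3 wpi, *Soat1* -0.0656 to 0.0125. For IL-4 MSC against PBS at 1 wpi, *Apoe* -0.0109 to 0.134 and *Apoc1* -0.0984 to 0.130. For IL-4 MSC against MSC at 1 wpi, *Apoc1* -0.154 to 0.0710 and *Clu* -0.0326 to 0.0624. For MSC against PBS at 1 wpi, *Apoc1* -0.0815 to 0.173, *Soat1* -0.0519 to 0.00802, *Plin2* -0.0866 to 0.288 and *Clu* -0.00766 to 0.0873. For IL-4 MSC against PBS at 3 wpi, *Apoe* -0.0180 to 0.115, *Apoc1* -0.0869 to 0.334, *Apoc2* -0.748 to 0.704 and *Clu* -0.0109 to 0.0606. For IL-4 MSC against MSC at 3 wpi, *Apoe* -0.0698 to 0.0119, *Apoc2* -0.743 to 1.44, *Abca1* -0.0614 to 0.0905 and *Plin2* -0.0420 to 0.127. For MSC against PBS at 3 wpi, *Apoc2* -1.72 to 0.977. For PBS between weeks, *Apoe* -0.0871 to 0.0648. For MSC between weeks, *Clu* -0.0674 to 0.0276. For IL-4 MSC between weeks, *Apoe* -0.0927 to 0.0104. For the change with week of IL-4 MSC against PBS, *Apoe* -0.0630 to 0.0984, *Apoc1* -0.315 to 0.106 and *Clu* -0.00602 to 0.0765. For the change with week of IL-4 MSC against MSC, *Apoc2* -0.544 to 1.64. For the change with week of MSC against PBS, *Abca1* -0.0444 to 0.202, *Abcg1* -0.0235 to 0.0278, *Plin2* -0.237 to 0.137 and *Clu* -0.0682 to 0.0268.

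The labels number the mice of each group alike. Over 99 pairs of mice with the same number the correlation of deviations from the group means had a median of 0.0227 (-0.30 to 0.41), 30 pairs were over 0.1, and 7 of 34 libraries were most like their own number, so the numbers were not taken to pair mice. With the replicate block, *Abcg1* in IL-4 MSC against Sham at 3 wpi newly passed (0.12, adjusted p = 0.0435, edgeR), and no other call changed. Depth limits *Apoc2* and *Apoc4*, whose counts at 3 wpi lie near the detection level.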

Other observations

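Apol9a, Apod, Apobr and Angptl4, which were higher than Sham in IL-4 MSC mice at 1 wpi, were lower in these mice at 3 wpi. Of the 15 other apolipoproteins 5 fell and 1 rose (40.0%, beside 33.0% of all genes), with Apol9a at -3.79 ± 0.43 and Apod at -1.38 ± 0.14 (log2, adjusted p = 2.19e-08 and 2.8e-09, edgeR). Of the 21 lipases and cofactors 7 fell and 1 rose (38.1%, near that background), with Apobr at -2.19 ± 0.21 and Angptl4 at -1.51 ± 0.26 (adjusted p = 9.18e-10 and 3.61e-05, edgeR). Cd36, a scavenger receptor for fatty acids and oxidised particles, fell by 1.88 on the log2 scale (adjusted p = 2.53e-06), and it had been 0.96 higher in IL-4 MSC than in MSC mice at 1 wpi (adjusted p = 0.015, edgeR). Of the 25 cholesterol synthesis genes 7 rose and 1 fell between the weeks in IL-4 MSC mice (32.0%, near the background).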
